A study of Mus musculus with 16 samples.

Results

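The genes described here are 10 transcription factors and repressors of the circadian clock and its output, measured in mouse lung. They were chosen by name (Dbp, Tef, Hlf, Nfil3, Per1, Per2, Per3, Nr1d1, Nr1d2 and Arntl), with earlier results of these data known. Every probe set annotated with exactly 1 of these symbols was taken. That gave 23 of 45037 probe sets and 10 of 18193 genes. The lungs came from 16 Balb/c mice of 23 weeks, 4 in each of 4 groups. Air females and air males had been exposed in utero to filtered air, and SHS females and SHS males in utero to second-hand smoke (SHS), given as sidestream smoke with 10 mg/m3 of particles for 5 h a day on 7 days a week. All 16 mice, the air groups included, were injected with the egg protein ovalbumin (OVA) at 19 and 21 weeks and breathed it as an aerosol in weeks 22 and 23, so no lung was free of allergen. The mice were kept in a light-dark cycle of 12 h. The sources used here give neither the hour at which each lung was taken nor the mothers and litters, and p-values measure the spread between these mice. A difference between groups in either cannot be told apart from a difference in exposure. SHS lungs were compared with air lungs of the same sex, and no female level was set against a male level. Values are log2 intensities, on which 1 unit is a doubling of signal, and a probe set was called when its adjusted p in limma was under 0.05.

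The circadian clock is a feedback loop that runs in nearly every cell, lung cells included. The protein of Arntl, also called Bmal1, pairs with Clock and switches on genes that carry an E-box, among them the Per genes, Nr1d1, Nr1d2, Dbp, Tef and Hlf. Per proteins then inhibit Arntl and Clock, while the nuclear receptors Nr1d1 and Nr1d2 (REV-ERB) repress Arntl through ROR elements, so that Arntl mRNA runs opposite in time to that of its targets. Dbp, Tef and Hlf are activators that carry the rhythm to output genes through D-boxes, and Nfil3 represses through the same boxes. Nfil3 is also a regulator of lymphocytes and of type 2 immune responses.

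The promoters of 6 members hold letters of these boxes, and they are shown as matches of letters only. RefSeq promoters of build GRCm38.p6, with 250 bases before and 50 after each start, were found for 9 of the 10 members. The letters CACGTG (E-box), CACGTT (E-box variant), TTATGTAA (D-box) and TAGGTCA (ROR element) were searched on both strands. Among 32851 promoter windows of 300 bases, 7.15%, 4.68%, 0.938% and 2.61% held them. A match is a run of letters and not a bound site. The windows of Dbp, Hlf and Nr1d2 held none of the 4, which says only that these letters are not in these windows. Per3, a member called lower in both sexes below, held a pair of D-boxes, here in capitals within the 208 bases of that window that lie before the gene's span (chr4:151044708-151044915, minus strand).

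Per3: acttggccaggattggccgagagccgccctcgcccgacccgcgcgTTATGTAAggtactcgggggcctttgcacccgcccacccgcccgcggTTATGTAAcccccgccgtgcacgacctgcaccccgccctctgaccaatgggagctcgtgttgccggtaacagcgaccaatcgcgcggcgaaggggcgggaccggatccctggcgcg

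Shorter windows around the other matches are given 5′ to 3′ on the strand of the gene, with the matched letters in capitals. Tef held an E-box before each of its 2 listed starts (chr15:81802536-81802561 and chr15:81811266-81811291, plus strand) and Per1 held 1 (chr11:69098773-69098798, plus strand). Nr1d1 held the E-box variant (chr11:98775390-98775415, minus strand). Nfil3 (chr13:52981035-52981061, minus strand) and Arntl (chr7:113207531-113207557, plus strand) held the ROR element near a listed start. The windows of Per1, Nfil3, Arntl and the later start of Tef lie within the RefSeq span of their gene, and that of Arntl lies after the listed start. Whether they are exonic or intronic was not analysed here.
Tef, start 1: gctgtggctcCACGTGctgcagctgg
Tef, start 2: cctggcccagCACGTGtctacatcgt
Per1: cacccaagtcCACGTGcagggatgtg
Nr1d1: cacagatctcAACGTGccggctgctg
Nfil3: cgctcggaacTGACCTActaacacaca
Arntl: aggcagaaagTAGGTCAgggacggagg

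The first comparison asks what SHS before birth left in the clock genes of the adult, allergen-exposed lung. Averaged over the sexes, Dbp, Tef, Per3 and Nr1d2 were lower and Nfil3 was higher after SHS. Each gene is represented here by its probe set of highest mean. Per3 fell by 0.56 ± 0.10 (SE, 8 SHS and 8 air lungs, adjusted p = 0.00154 in limma), Dbp by 0.55 ± 0.10 (adjusted p = 0.00176), Nr1d2 by 0.38 ± 0.06 (adjusted p = 8e-04) and Tef by 0.36 ± 0.09 (adjusted p = 0.0138). Nfil3 rose 1.62-fold, by 0.70 ± 0.11 (adjusted p = 0.000568). Thus 4 of 10 members were called lower and 1 higher, where 4.32% of all 18193 genes were called lower and 9.2% higher. The median size of a member's difference, without its sign, was 0.37, beside 0.08 for all genes. As the members were chosen with earlier results known, such shares and sizes, here and below, are descriptions and no test of the set. The 4 lower members and Nfil3 were each called in all 16 fits that left out 1 lung. In whole lung, fewer cells that express a gene and less RNA per cell cannot be told apart.

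**Figure D1:**
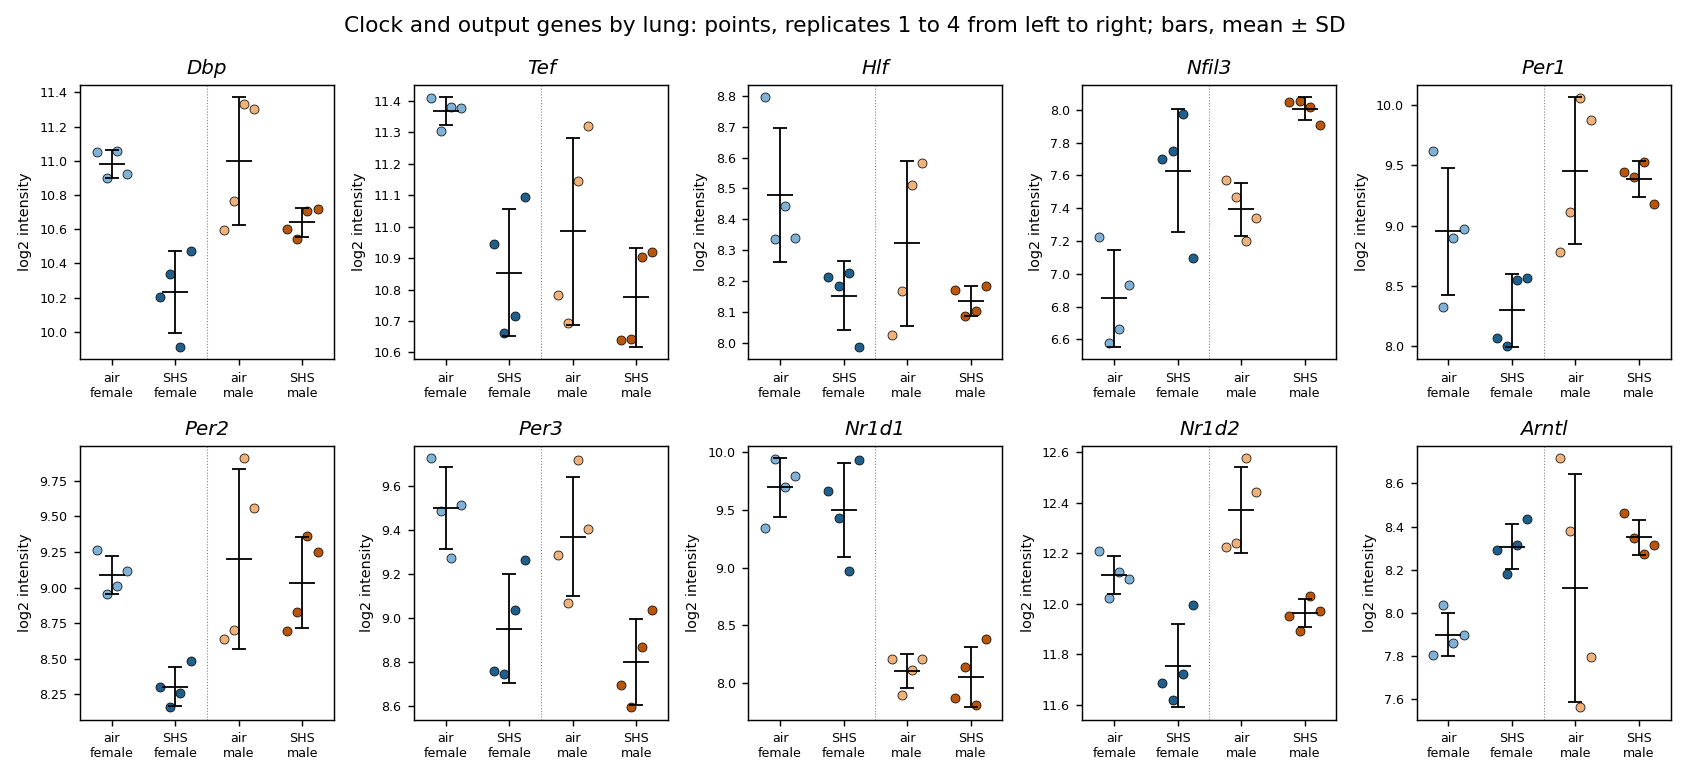
Log2 intensity (y axis) of each of the 10 genes in the 16 lungs, by group (x axis), with points for replicates 1 to 4 from left to right and bars for mean ± SD; a dotted line parts the sexes, which are not compared. Dbp, Tef, Per3, Nr1d2 and Per2 of all 4 SHS females lay below all 4 air females, and in air males Dbp, Per1, Per2 and Arntl were spread most widely.

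Within females, 4 members were called lower (Dbp, Tef, Per3 and Nr1d2) and Nfil3 was called higher, where 0.676% of all genes were called lower and 3.29% higher. Within males, Per3 and Nr1d2 were called lower and Nfil3 higher, beside 2.47% and 4.17% of all genes. The median size of a member's difference was 0.53 in females and 0.22 in males, beside 0.09 and 0.10 for all genes. In females 6 members had all 4 SHS lungs below all 4 air lungs, beside 2.65% of genes, and Arntl had all of them above, beside 7.74%. In males this held for 2 members below (8.53% of genes) and for Nfil3 above (10.5%). The female count rested on single lungs. It was 1 lower member, Dbp, without air female replicate 1, 2 or 4 or SHS female replicate 1, 2 or 3. It was 2 without air female replicate 3 or SHS male replicate 1, 2 or 3, the males entering through the shared estimate of spread. The male count of 2 was 1 without air male replicate 1 or 4 or SHS male replicate 1, 2 or 3, and 0 without air male replicate 3.

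**Figure D2:**
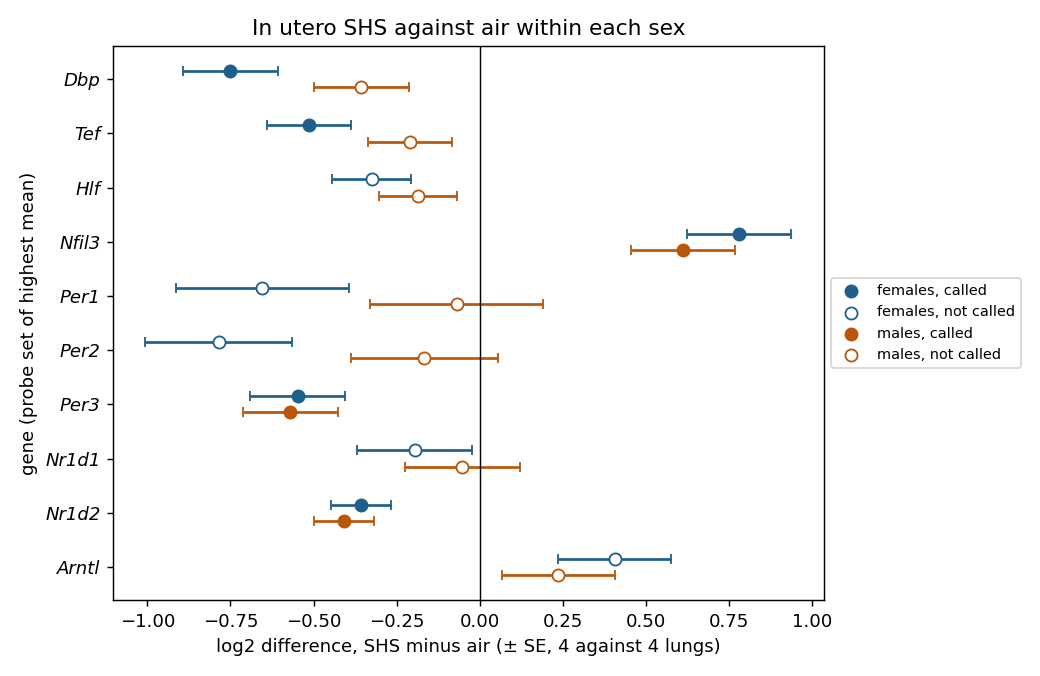
Log2 difference, SHS minus air (x axis), with its SE for each of the 10 genes (y axis) in females (blue) and males (orange), 4 against 4 lungs, with filled points for differences called at an adjusted p under 0.05. In both sexes 8 genes lay to the left of 0, and Nfil3 and Arntl to the right.

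Among the activators of the D-box, Dbp had the largest difference in females by the main probe sets. Dbp (chromosome 7, 45705100 to 45710203 in GRCm38.p6) was at 11.05, 10.90, 11.06 and 10.92 in the 4 air females and at 10.20, 10.34, 9.91 and 10.47 in the 4 SHS females. The groups did not overlap, and Dbp fell by 0.75 ± 0.14, a 1.68-fold difference (adjusted p = 0.0074 in limma). In air males it was at 10.60, 10.77, 11.33 and 11.30, and in SHS males at 10.60, 10.54, 10.71 and 10.72. Air male replicates 3 and 4 stood above every SHS male by more than 0.5, replicate 1 lay within their range and replicate 2 just above it. The male difference of -0.36 ± 0.14 was not called (adjusted p = 0.166), with a 95% interval from -0.66 to -0.05.

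Tef (chromosome 15, 81802673 to 81826863), the relative of Dbp, was at 11.41, 11.31, 11.38 and 11.38 in air females. SHS females were at 10.95, 10.66, 10.71 and 11.09. All 4 lay below the air females, and Tef fell by 0.51 ± 0.13 (adjusted p = 0.0336). Air males were at 10.78, 10.69, 11.15 and 11.32 and SHS males at 10.64, 10.64, 10.90 and 10.92, groups that overlapped (-0.21 ± 0.13, adjusted p = 0.378). The female call held in 9 of 16 fits with 1 lung left out, and the adjusted p was highest, 0.112, without SHS female replicate 2. It was also above 0.05 without SHS female replicate 1 or 3 or any 1 air female.

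Hlf, the third activator of this family (chromosome 11, 90336535 to 90390917), was not called by its brighter probe set, at 8.79, 8.34, 8.44 and 8.34 in air females and 8.21, 8.18, 8.23 and 7.99 in SHS females. The groups did not overlap (-0.32 ± 0.12, adjusted p = 0.163). Its dimmer probe set was lower by 0.47 ± 0.10 in females (adjusted p = 0.0187), at 7.82, 7.72, 7.81 and 7.75 after air and 7.12, 7.24, 7.44 and 7.42 after SHS. That call held in 13 of 16 fits, and was lost without air female replicate 3 or SHS female replicate 1 or 2 (adjusted p up to 0.0784). In males the same probe set did not overlap between the groups either, with air lungs at 7.89, 7.86, 8.33 and 8.33 and SHS lungs at 7.77, 7.77, 7.83 and 7.84 (-0.30 ± 0.10, adjusted p = 0.107). Averaged over the sexes it fell by 0.38 ± 0.07 (adjusted p = 0.00249), while the brighter one was not called (-0.26 ± 0.08, adjusted p = 0.0605).

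Nfil3, the repressor at the same boxes (chromosome 13, 52967209 to 52982878), was the member called higher in both sexes. Air females were at 7.23, 6.58, 6.66 and 6.93 and SHS females at 7.70, 7.75, 7.97 and 7.09. Replicate 4 of the SHS females lay below air female replicate 1, and the other 3 above every air female. Nfil3 rose 1.72-fold in females, by 0.78 ± 0.16 (adjusted p = 0.0104), and by 0.96 without SHS female replicate 4. With the 8 female arrays fitted alone it was not called (adjusted p = 0.0755). In males it was at 7.57, 7.47, 7.20 and 7.34 after air and at 8.05, 8.06, 8.02 and 7.91 after SHS. These groups stood apart, and Nfil3 rose 1.53-fold, by 0.61 ± 0.16 (adjusted p = 0.0311). The male call held in 11 of 16 fits, and was lost without air male replicate 3 (adjusted p = 0.0979) or 4 (0.065) and without SHS male replicate 1 (0.0792), 2 (0.0763) or 3 (0.0783). SHS female replicate 4 also had the lowest mean of the 5 pan-leukocyte markers in its group, 11.90 against 12.29, 12.45 and 12.47 in the other 3. Air females were at 11.92 to 12.11 on this list, SHS males at 11.81 to 12.29 and air males at 11.88 to 12.11. Of the 5 markers Cd53 was called higher in females and none in males. The part of leukocytes in the Nfil3 result was not tested.

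The Per genes encode the repressors of the loop. Per3 (chromosome 4, 150997018 to 151044707) was at 9.73, 9.49, 9.27 and 9.52 in air females and at 8.76, 8.75, 9.04 and 9.27 in SHS females. The groups did not overlap, though SHS female replicate 4 and air female replicate 3 were equal to 2 decimals, and Per3 fell by 0.55 ± 0.14 (adjusted p = 0.0451). In males it was at 9.29, 9.07, 9.72 and 9.41 after air and at 8.70, 8.60, 8.87 and 9.04 after SHS, again without overlap. Per3 fell by 0.57 ± 0.14 (adjusted p = 0.0269), a 1.48-fold difference that was 1.46-fold in females. The female call held in 5 of 16 fits with 1 lung left out and the male call in 10. In females it was lost without any 1 of air female replicates 1, 2 and 4, SHS female replicates 1 to 3, air male replicates 1 and 4 and SHS male replicates 1 to 3, and in males without any 1 of air male replicates 1, 3 and 4 and SHS male replicates 1 to 3. With the 8 female arrays fitted alone Per3 was not called (adjusted p = 0.0748). The highest adjusted p was 0.146 in females, without SHS female replicate 1, and 0.0937 in males, without air male replicate 3.

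Per2 (chromosome 1, 91415977 to 91459351) was at 9.26, 8.96, 9.01 and 9.12 in air females and at 8.30, 8.16, 8.26 and 8.49 in SHS females. No SHS female came within 0.4 of an air female. The difference of -0.78 ± 0.22 was not called (adjusted p = 0.0656). Air males, whose spread enters the fit of all 4 groups, ranged widely, at 8.64, 8.70, 9.91 and 9.56. Without air male replicate 1 or 3 the adjusted p in females was 0.0433 and 0.0242, without SHS female replicate 4 it was 0.0392, and with the 8 female arrays fitted alone it was 0.00515. SHS males were at 8.70, 8.83, 9.37 and 9.25, within the range of the air males (-0.17 ± 0.22, adjusted p = 0.737).

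Per1 (chromosome 11, 69095108 to 69109965), a gene that glucocorticoids also induce, varied widely among air lungs of both sexes. Air females were at 9.62, 8.33, 8.90 and 8.97 and SHS females at 8.07, 8.01, 8.55 and 8.57, which overlapped (-0.65 ± 0.26, adjusted p = 0.207). Air males were at 8.78, 9.11, 10.05 and 9.87 and SHS males at 9.44, 9.40, 9.52 and 9.18, with a difference of -0.07 ± 0.26 (adjusted p = 0.918). The 95% interval of the male difference, from -0.62 to 0.48, holds changes in either direction.

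Of the REV-ERB receptors, Nr1d2 was lower and Nr1d1 was not called. Nr1d2 (chromosome 14, 18204056 to 18239106) was at 12.21, 12.02, 12.12 and 12.10 in air females and 11.69, 11.62, 11.72 and 11.995 in SHS females. Air males were at 12.22, 12.24, 12.58 and 12.44 and SHS males at 11.95, 11.89, 12.03 and 11.97. All SHS lungs lay below all air lungs of their sex, by as little as 0.03 in females. Nr1d2 fell by 0.36 ± 0.09 in females (adjusted p = 0.0387) and by 0.41 ± 0.09 in males (adjusted p = 0.0136). The male call held in 15 of 16 fits (adjusted p = 0.0533 without air male replicate 3), the female call in 6. The latter was lost without any 1 air female, SHS female replicate 1, 2 or 3 or SHS male replicate 1, 2 or 3, with its highest adjusted p, 0.122, without SHS female replicate 2, and with the 8 female arrays fitted alone (adjusted p = 0.0991). As the mean of both its probe sets Nr1d2 was not called in males (-0.24, adjusted p = 0.193). The dimmer one had male means of 6.15 after air and 6.09 after SHS, below the median of 7.02 for all probe sets. Nr1d1 (chromosome 11, 98767932 to 98775377) was at 9.34, 9.94, 9.70 and 9.80 in air females and 9.67, 9.43, 8.97 and 9.93 in SHS females. It was at 8.20, 7.90, 8.11 and 8.20 in air males and 7.87, 8.14, 7.81 and 8.38 in SHS males. The groups overlapped in both sexes (-0.20 ± 0.17 and -0.05 ± 0.17, adjusted p = 0.647 and 0.906). The span of Nr1d1 overlaps that of Thra in RefSeq, and which of them its probe set reads was not tested. The spans of Dbp and Sphk2 and of Per3 and Uts2 overlap too, as do those of Per2 and Arntl with a predicted gene each.

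Arntl (chromosome 7, 113178471 to 113314126), the activator that runs opposite to these genes, lay on the other side. Air females were at 7.80, 8.04, 7.86 and 7.90 and SHS females at 8.29, 8.18, 8.32 and 8.44, all above the air females. The difference of 0.41 ± 0.17 was not called (adjusted p = 0.236), but with the 8 female arrays fitted alone the adjusted p was 0.0444. Air males were at 8.72, 8.38, 7.56 and 7.80, with an SD of 0.53, and SHS males at 8.46, 8.35, 8.27 and 8.32, with an SD of 0.08. Air male replicate 1 lay above the SHS males, replicate 2 within their range and replicates 3 and 4 below it (0.24 ± 0.17, adjusted p = 0.476). Averaged over the sexes Arntl was not called (0.32 ± 0.12, adjusted p = 0.102), and without air male replicate 1 it was (0.42, adjusted p = 0.00901).

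No difference between the sexes in the response to SHS was called for any member. The test of that difference, females minus males, called 0 of the 23 probe sets and 0 of all 45037 in limma, while 3709 had an unadjusted p under 0.05. Among the 23, the smallest adjusted p was 0.434, and 3 had an unadjusted p under 0.05. By the main probe sets, 0 of 10 did. The difference was -0.39 for Dbp (95% interval -0.82 to 0.03), -0.62 for Per2 (-1.28 to 0.04) and -0.58 for Per1 (-1.36 to 0.19), intervals that hold 0 as well as differences of 0.8 and more. It was 0.02 for Per3 (-0.40 to 0.45) and 0.05 for Nr1d2 (-0.22 to 0.32).

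Most probe sets of a member pointed the same way as its brightest one. Of the 23 probe sets, 20 had a lower mean after SHS in females, 9 of them called lower, beside 0.517% of all probe sets. In males 19 had a lower mean and 4 were called lower, beside 2.11%. The average over the sexes called 11 lower, beside 3.67%. Nfil3, with 1 probe set, was the only called rise among the 23 in either sex, where 2.36% of all probe sets were called higher in females, 3.07% in males and 6.65% by the average. All 6 probe sets of Per3 were lower in both sexes. In females their differences ran from -0.29 to -0.57, with a second called probe set at -0.57 ± 0.09 (adjusted p = 0.00201), and in males from -0.07 to -0.57, with 3 called. The male calls of the 2 dimmer ones each held in 12 of 16 fits, and were lost without air male replicate 3 or 4 or SHS male replicate 1 or 2. Both probe sets of Dbp were called lower in females, at -0.75 and -0.68. The dimmer one kept its call in 7 of 16 fits with 1 lung left out, and lost it without any 1 air female, SHS female replicate 1, 2 or 3 or SHS male replicate 1 or 3 (adjusted p up to 0.137). Of 3 Tef probe sets, 2 were called lower in females at -0.51 and -0.49, and the other was at -0.17 (adjusted p = 0.667). The dimmest of 3 Per2 probe sets was called lower in females (-0.51 ± 0.12, adjusted p = 0.0256), while in males it was at 0.06 (adjusted p = 0.824). Its male means, 6.66 after air and 6.73 after SHS, lay below the median of 7.02 for all probe sets. The female call held in 10 of 16 fits, and was lost without air female replicate 1, 3 or 4 or SHS female replicate 1, 2 or 3 (adjusted p up to 0.0839). The dimmer Nr1d2 probe set was not called in either sex (-0.42 and -0.06). Its male means, 6.15 after air and 6.09 after SHS, also lay below that median. The dimmer Arntl probe set was not called in either sex (0.02 and 0.06).

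**Figure D3:**
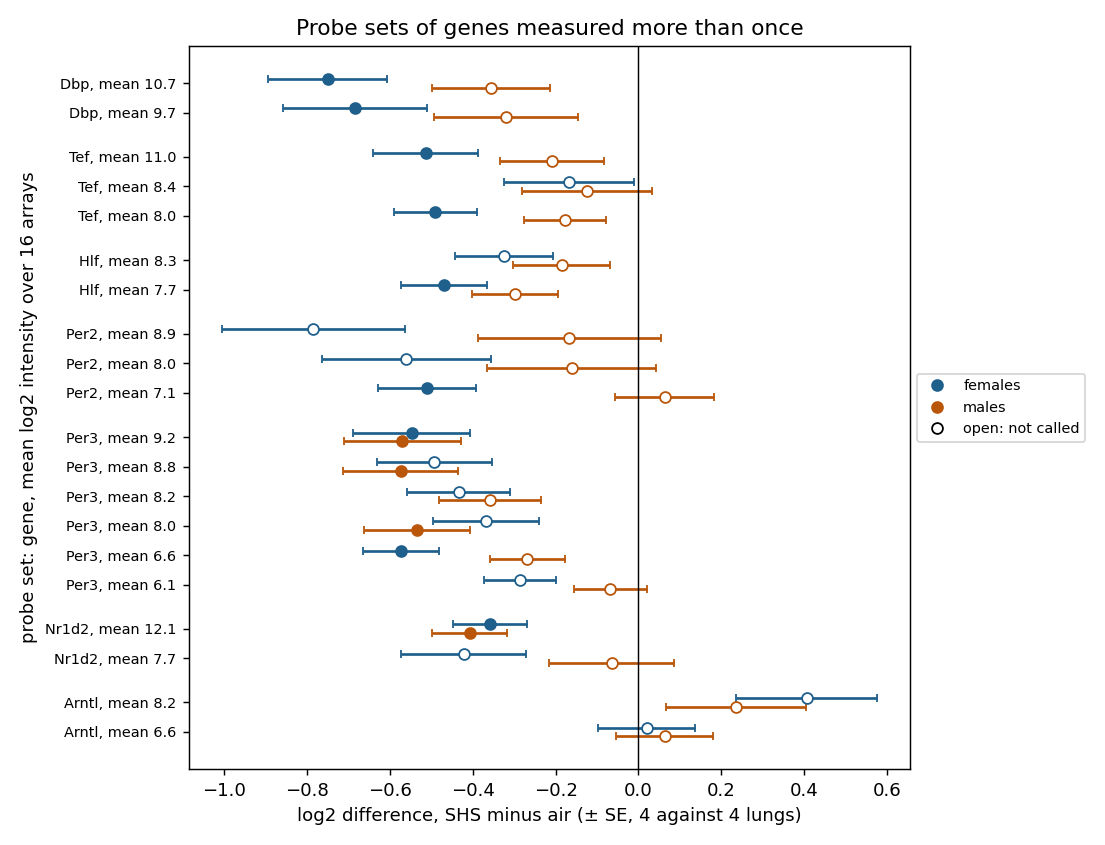
Log2 difference, SHS minus air (x axis), with its SE for every probe set of the 7 genes measured by more than 1 probe set, in females (blue) and males (orange), with the mean log2 intensity beside each gene name (y axis) and open points for differences not called. All Per3, Dbp, Tef and Hlf probe sets lay to the left of 0 in both sexes, and the dimmer Arntl probe set lay near 0.

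Lungs of 1 group also differed from each other along the clock, above all among air males. Air male replicates 1 and 2 lay below their group mean for Dbp, Tef, Hlf, Per1, Per2, Per3 and Nr1d2 and above it for Nfil3 and Arntl, and replicates 3 and 4 had the opposite signs on all 9 of these genes. SHS males 1 and 2 also lay below and 3 and 4 above their group mean for Dbp, Tef, Per2, Per3 and Nr1d2. Their deviations were -0.34, -0.20, 0.33 and 0.21 for Per2 and -0.04, -0.10, 0.07 and 0.07 for Dbp, while Hlf, Nfil3, Per1, Nr1d1 and Arntl did not split by these numbers. In air males the deviations of replicates 1 to 4 were 0.60, 0.27, -0.55 and -0.32 for Arntl, and -0.57, -0.50, 0.71 and 0.36 for Per2. Over the deviations of all 16 lungs from their group means, Arntl had a Pearson correlation of -0.79 with Dbp (Spearman -0.76) and of -0.85 with Per2. Per2 had 0.81 with Dbp, Tef 0.79 and Nr1d2 0.75, whereas Nr1d1 had 0.33. Without the 2 lungs farthest from the median of Dbp, air male replicate 1 and SHS female replicate 3, the correlation with Dbp was -0.77 for Arntl and 0.84 for Per2. With both groups of a sex pooled, the relation of Arntl to Dbp was seen in males and not in females. The pooled female value does not describe each group alone. Air females 1 to 4 deviated by 0.07, -0.08, 0.08 and -0.06 for Dbp and by -0.10, 0.14, -0.04 and -0.0008 for Arntl. SHS females 1 to 4 deviated by -0.03, 0.11, -0.32 and 0.24 for Dbp and by -0.02, -0.12, 0.01 and 0.13 for Arntl. Over the 8 male lungs Arntl stood at -0.97 and Per2 at 0.93, over the 8 female lungs at -0.05 and 0.39, and over the 12 lungs that are not air males at -0.13 and 0.43. Tef, Nr1d2 and Nfil3 kept correlations of 0.60, 0.55 and -0.55 with Dbp over those 12. As the 12 include all 8 females, they do not show whether Arntl ran opposite to Dbp within the SHS males. These are descriptions of lungs that share arrays and scaling, with no test.

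**Figure D4:**
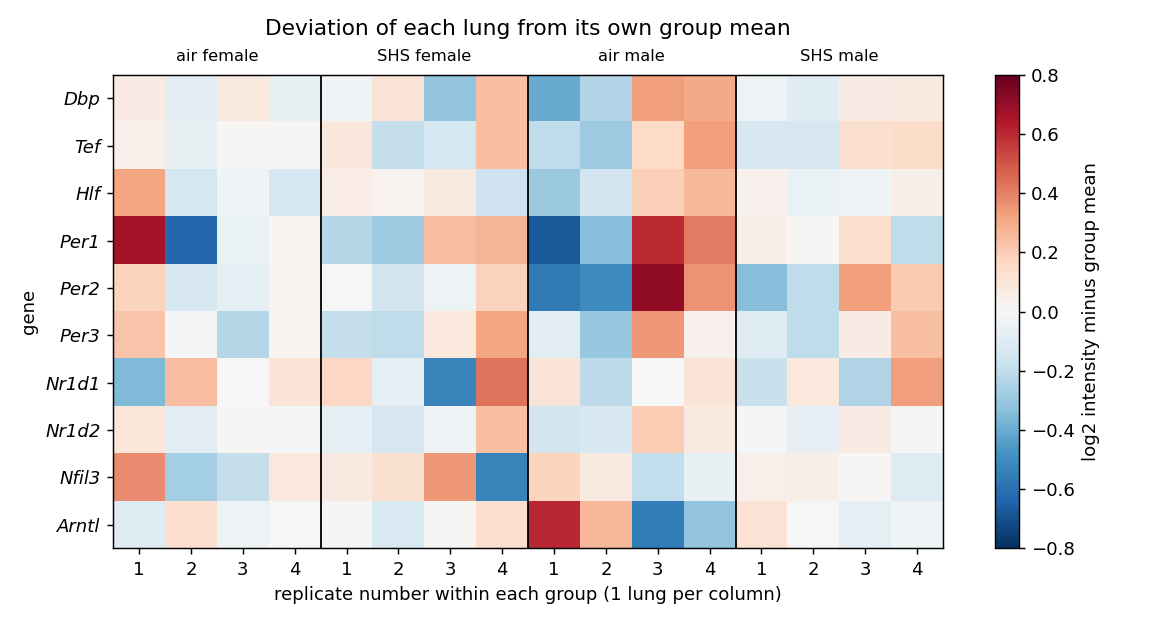
Deviation of each lung (columns, by group and replicate number) from the mean of its own group for each gene (rows), in log2 intensity by the colour bar, red above and blue below the mean. Air males show the largest deviations, with replicates 1 and 2 low and replicates 3 and 4 high for Dbp, Per1 and Per2, and the reverse for Arntl.

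By the same deviations, the genes most like Dbp among 11396 genes of more than median intensity were Hspbp1 (0.93), Tspan4 (0.91), Lyve1 (0.86), Cdc42bpa (0.86) and Rgcc (0.86). The most opposite were Mri1 (-0.88), Rap1gap2 (-0.86), Fars2 (-0.83), P2ry10b (-0.82) and Rasl11a (-0.82). Over 16 lungs the correlations of all these genes had a median of 0.10, a 5th percentile of -0.47 and a 95th percentile of 0.58. Of the 10, Tspan4, a tetraspanin that is also in the list of output genes given next, was called lower in females (-0.48 ± 0.11, adjusted p = 0.0174). Hspbp1, a cochaperone of Hsp70, was not called (0.05 ± 0.06 averaged over the sexes, adjusted p = 0.724), nor were the other 8.

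Beside the 10 members, 12 other core clock factors were measured, of which none was called in females and 1 was called lower in males. That was Cry1, a partner of the Per proteins, which fell by 0.37 (adjusted p = 0.0152). Averaged over the sexes 2 of the 12 were lower and 2 higher, with a list median of 0.00036. Cry1 fell by 0.24 (adjusted p = 0.0127) and Cry2 by 0.33 (adjusted p = 0.0187). Bhlhe40, a repressor at E-boxes, rose by 0.40 (adjusted p = 0.00562) and Tipin, a replication fork protein named as the partner of Timeless, by 0.27 (adjusted p = 0.0358). Clock, the partner of Arntl, was at 0.25 in females and -0.02 in males and was not called (adjusted p = 0.217 and 0.924). Of 14 kinases, phosphatases, ligases and cofactors of the clock, none was called in either sex. The deacetylase Sirt1 fell by 0.21 averaged over the sexes (adjusted p = 0.0336), with a list median of -0.10.

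Of 10 measured output genes 2 were called lower in females, none in males and 2 averaged over the sexes, with an averaged list median of -0.14. Usp2, a deubiquitinase driven by the clock, fell by 0.33 ± 0.07 in females (adjusted p = 0.0189), and Tspan4 was the other. Cdkn1a, the cell cycle inhibitor p21, rose by 0.36 in females (adjusted p = 0.0423) and by 0.33 averaged over the sexes (adjusted p = 0.00325). Wee1, a mitotic kinase with E-boxes, was at -0.20 averaged and was not called (adjusted p = 0.0667). Glucocorticoid hormone follows the day and induces Per1, so 12 of its response genes were listed. None was called in females and 1 was called lower in males, the kinase Sgk1 (-0.31, adjusted p = 0.0281). Averaged over the sexes Tsc22d3 fell by 0.48 (adjusted p = 0.00802) and Dusp1 by 0.34 (adjusted p = 0.0298). Of the 10 not called by that average, Zbtb16 was at -0.77, Pdk4 at -0.25, Klf9 at -0.22, Sgk1 at -0.15, Errfi1 at -0.06 and Mt1 at -0.05. Cebpd was at 0.02, Fkbp5 at 0.13 (adjusted p = 0.461), Mt2 at 0.20 and Angptl4 at 0.25. Per1, above, was at -0.36 and was not called (adjusted p = 0.247). The list median was -0.11. The means of this list in air male replicates 1 to 4 were 10.52, 10.63, 10.97 and 10.79. Replicates 1 and 2 thus lay below 3 and 4, as for Dbp. In SHS males the means were 10.58, 10.59, 10.64 and 10.57. What these lungs share was not tested.

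**Figure D5:**
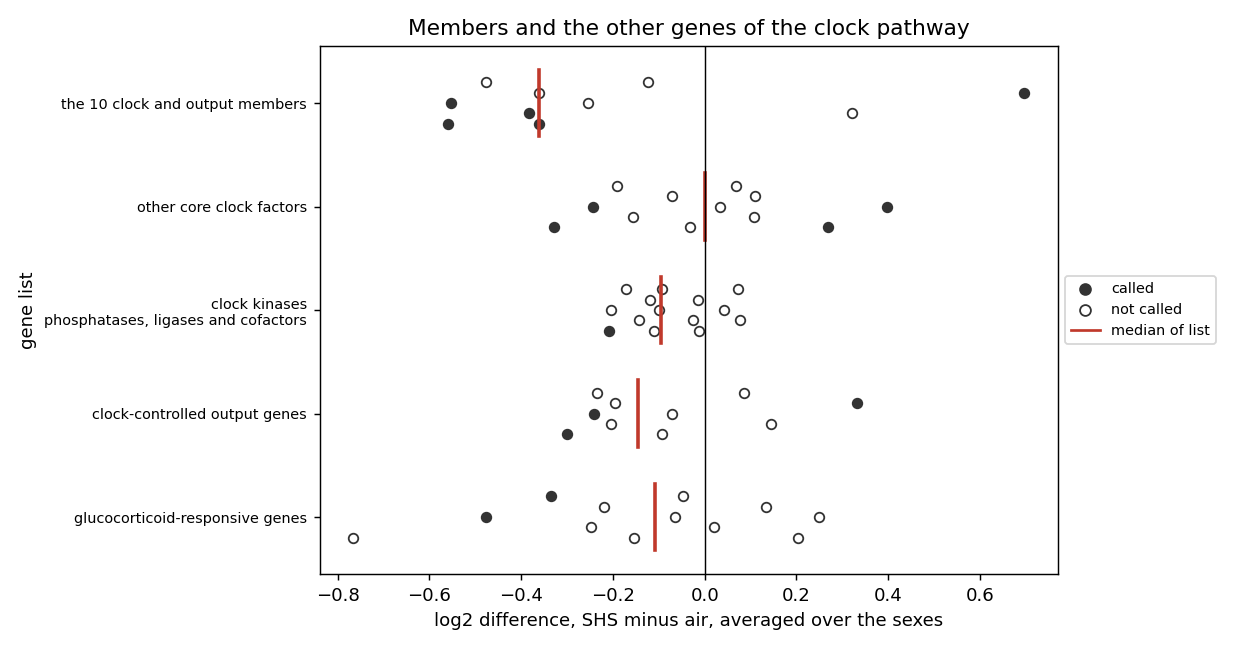
Log2 difference, SHS minus air averaged over the sexes (x axis), for the 10 members and the measured genes of 4 pathway lists (y axis), 1 point per gene, filled where called, with a red line at each list's median. The median of the 10 members lay at -0.36 and those of the lists between -0.14 and 0.00036.

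In several marker lists some genes were called beside the clock genes, and their part in these results was not tested. Of all genes 3.29% were called higher and 0.676% lower in females, and 4.17% and 2.47% in males. By the average over the sexes 9.2% were called higher and 4.32% lower. All 7 measured genes of dividing cells were higher in both sexes, with list means of 8.40 to 9.16 in SHS females against 7.49 to 7.85 in air females, and of 8.66 to 9.18 in SHS males against 7.76 to 8.08 in air males. Club cell markers, genes of airway secretory cells, had list means of 13.64 to 13.96 in SHS females against 14.03 to 14.38 in air females. In males they were at 13.60 to 13.90 after SHS and at 13.84 or more after air. Of 6 club cell genes 1, Scgb3a2, was called lower in each sex, and 3 averaged over the sexes. The neutrophil list had means of 9.29 to 9.47 in SHS males, all above the 8.78 to 9.20 of air males, with Cxcr2 called higher in males (adjusted p = 0.0161) and 2 of 5 genes averaged over the sexes. In females its means overlapped, at 8.85 to 9.65 against 8.75 to 9.27, and none was called. Of 6 endothelial markers Tek was called lower in females (adjusted p = 0.0356) and averaged over the sexes. By that average Cldn5 and Vwf lay on the other side, at 0.20 and 0.16, and were not called. The averaged median of this list was -0.04. Of 6 smooth muscle genes 2 were called higher by the same average. Of 6 fibroblast markers Tcf21 was called lower in females and none in males. Averaged over the sexes Tcf21 and Pdgfra were called lower (adjusted p = 0.00885 and 0.0376 in limma). Col1a1 and Col1a2 lay on the other side, at 0.32 and 0.17, and were not called. Of 7 macrophage markers Mrc1 was called higher in both sexes and no other was called in either. Siglecf was at -0.32 in females and -0.54 in males, and Cd68 at 0.23 and -0.20. The macrophage list had medians of 0.20 in females and 0.07 in males. The eosinophil list was lowest in SHS female replicate 4 (6.72, against 7.86 to 8.31 in the other 3) and SHS male replicate 4 (7.10, against 7.91 to 8.28), which also had the lowest means of dividing cells in their groups. The 7 markers of lung epithelium had list means of 12.22 to 12.96 over all lungs, and none was called. The median for all probe sets was 7.02, and Nkx2-1 lay below it in males, with means of 6.08 after air and 6.25 after SHS.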

How the data were processed

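Total RNA of 16 left lungs was biotin-labelled and hybridized to Affymetrix mouse arrays, 1 lung per array, per the labels. The authors deposited 1 normalized log2 value per probe set and array. Its base was taken from the values, 2.58 to 15.2, and how they were summarised and normalized was not stated in any source at hand. The submitters' processing notes name limma. Array medians ran from 7.00 to 7.04 and correlations within a group from 0.990 to 0.998.

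Control probe sets, 64 of 45101, were dropped. Gene names came from the platform annotation, positions and promoters from RefSeq (GRCm38.p6). Group means were fitted with limma 3.58.1 (R 4.3.3), with 12 residual and 5.56 prior degrees of freedom, two-sided, and adjusted by Benjamini-Hochberg over 45037 probe sets per comparison. Intervals are at 95%. The number of lungs, 4 per group, limited the precision. A gene counts by its probe set of highest mean. Pathway lists held 53 genes, 48 measured, and marker lists 109 entries, 99 measured. Named were all members, called genes of the pathway lists, leading genes of the marker lists and the 5 genes most and least like Dbp. Clock, Wee1 and Fkbp5 were added after their values were seen. Members and lists were chosen with earlier results of these data known. The fit was tested on simulated data. Alternatives covered scaling, filters, blocks, weights, priors, thresholds, gene summaries and each array left out. Plots used matplotlib 3.10.9 under Python 3.11.15.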

Additional observations from a re-analysis of the deposited data

Results flagged for a closer look

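Of 92 groups of 4 lungs, 3 had 1 lung far from the other 3, where chance gives about 1 in 20. The middle Tef probe set was at 7.85 in SHS female replicate 1 and at 7.27 to 7.32 in the other SHS females. The dimmest Per2 probe set was at 6.93 in SHS male replicate 3 and at 6.65 to 6.66 in the other SHS males. The dimmest Per3 probe set was at 6.29 in air female replicate 3 and at 6.49 to 6.53 in the other air females. None of these probe sets represents its gene in the counts of the report.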

How the results depend on the processing

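Requiring a 1.5-fold difference left 1 member called lower in females (Dbp), 0 in males and 0 averaged over the sexes. With a gene taken as the mean of its probe sets, 1 member was called lower in males. Left-out lungs gave 1 to 5 lower members in females, 0 to 2 in males and 4 to 6 averaged, and 1, 0 to 1 and 1 to 2 higher members; the difference between the sexes gave 0 throughout. Other settings kept these counts within 1.5 times, though not always with the same genes: fitting the 8 female arrays alone called Per2 and Arntl and lost Nfil3, Per3 and Nr1d2. No called difference changed sign. Quantile normalization, which put 70.6% of all probe sets called in females on the higher side in place of 82.0%, gave 5 lower members in females and 6 averaged. The replicate block gave 5 lower and 1 higher member in females, 2 and 1 in males. Whether lungs were paired by number was not settled over probe sets above the median intensity. Deviations of same-numbered air and SHS lungs of a sex correlated at -0.18 to 0.28, over 0.1 in 3 of 8 pairs. Among the male pairs they ran from 0.05 to 0.22. Of 16 lungs, 7 correlated best with their own number, each out of 4 lungs of the other group. The numbers may still mark something shared, which was not tested.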
